A study of Homo sapiens with 4 samples.

Results

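Ribosome biogenesis is the assembly of ribosomal RNA and protein into ribosomal subunits, and most of it takes place in the nucleolus. RNA polymerase I (Pol I) transcribes the ribosomal DNA into a long precursor RNA. Small nucleolar ribonucleoproteins (snoRNPs) modify that precursor, the small subunit processome folds and cuts its 18S part, and separate factors build the large subunit. Proliferating cancer cells make many ribosomes, and the transcription factor MYC is known to activate many genes of this pathway.

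The genes described here are 55 factors of Pol I transcription and ribosome assembly, grouped by their known function. Of these, 52 have an array feature annotated to that gene alone, out of 18418 such genes in the table. NOP56, GNL3 and DDX18 were not analysed here. By step the 52 comprise 5 of 5 listed for Pol I transcription, 7 of 8 for snoRNPs, 21 of 21 for the small subunit, 14 of 16 for the large subunit and 5 of 5 that act at several steps.

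RNA came from AGS, an established line of human gastric carcinoma cells. One group received 0.01% ornithogalum, which the series title describes as a homeopathic formulation, and the other received ethanol, its vehicle, both for 36 h. Each group has 2 biological replicates on Affymetrix Human Gene 1.0 ST arrays, 4 arrays in all. The labels name no separate cultures or days, so the p-values describe only the spread between these samples, which may be technical in part. They do not give the composition of the preparation.

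Values are the authors' log2 expression levels per transcript cluster, a set of probes that covers 1 transcript locus. Differences are ornithogalum minus vehicle, with limma's standard error (SE), and "rose" or "fell" means a Benjamini-Hochberg adjusted p under 0.05 in limma over all 21214 tested clusters. A fold change is 2 raised to the log2 difference. Arrays have no read depth, and their number, 2 per group, limits the precision. On bulk RNA, fewer transcripts per cell and fewer cells that express a gene cannot be told apart.

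The pooled SD within groups over all tested clusters was 0.258 for ornithogalum and 0.140 for vehicle. The array medians were 4.48 and 4.62 (ornithogalum) and 4.71 and 4.70 (vehicle), on the log2 scale. Of 12 gastric and epithelial markers EPCAM lay between 9.59 and 10.07 and the keratin gene KRT8 between 10.37 and 10.59 on the 4 arrays, while the stomach genes GKN1 and CLDN18 reached no more than 2.01 and 3.65 on any array. Of these 12, 0 rose and 3 fell (25%), MUC1 by 5.69-fold, KRT19 by 2.63-fold and TFF1 by 1.51-fold. Of 25 measured markers of fibroblasts, leukocytes and endothelium, 2 rose (8%, PDGFRA and CD68) and 0 fell. Over all tested clusters 6.57% rose and 12.6% fell. The median difference of the 25 was 0.11, with 18 of 25 positive, as were 11452 of all 21214 clusters. The part of either marker group in the results below was not tested. The leukocyte gene PTPRC lay between 1.44 and 1.74 and the endothelial gene PECAM1 between 2.39 and 2.62, while LYZ, which some epithelia also express, lay between 11.70 and 11.76.

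Ornithogalum-treated cells had higher levels of some ribosome assembly factors and a lower level of the second-largest Pol I subunit. Of the 52 genes, 9 rose and 1 fell, and 42 did not pass. The 9 that rose are 17.3% of the genes, where 6.57% of all tested clusters rose, and the 1 that fell is 1.92%, where 12.6% of all clusters fell. RRP12, RRN3, RRP8, NOP10, NIP7, DDX10, WDR36, GNL3L and NOLC1 rose, by between 1.39-fold and 2.37-fold, and POLR1B fell 1.61-fold. The median difference over the 52 genes was 0.17, against 0.04 over all tested clusters. Of the 52 differences 34 were positive, as were 11452 of 21214 over all tested clusters. The same shares of all clusters stand beside the counts of each step below.

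Without vehicle replicate 1 or 2, limma called 0 of the 52 genes and 0 of all clusters, with 8 and 9 of the 52 genes at an unadjusted p under 0.05. A fit without 1 array estimates each cluster's spread from the pair left in the other group. That is the ornithogalum pair (pooled SD 0.258) without a vehicle array, and the vehicle pair (0.140) without an ornithogalum array. What this did to the calls was not tested. Without vehicle replicate 1 and 2 in turn, RRP12 differed by 1.24 and 1.25, RRN3 by 1.03 and 1.12 and RRP8 by 0.89 and 0.91. Some other differences moved more, to 0.71 and 0.89 for NOP10 and -0.78 and -0.61 for POLR1B. NOLC1 gave 0.42 and 0.54, and WDR36 0.59 and 0.48. The median difference over the 52 genes was 0.18 without ornithogalum replicate 1 and 0.16 without ornithogalum replicate 2. These medians lay 0.14 and 0.17 above those of all tested clusters. Array scaling also moved the counts. Centring each array on its median gave 14 higher and 0 lower and moved the median of all clusters from 0.04 to 0.20, quantile normalization gave 12 and 0, and cyclic loess 13 and 1.

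**Figure D1:**
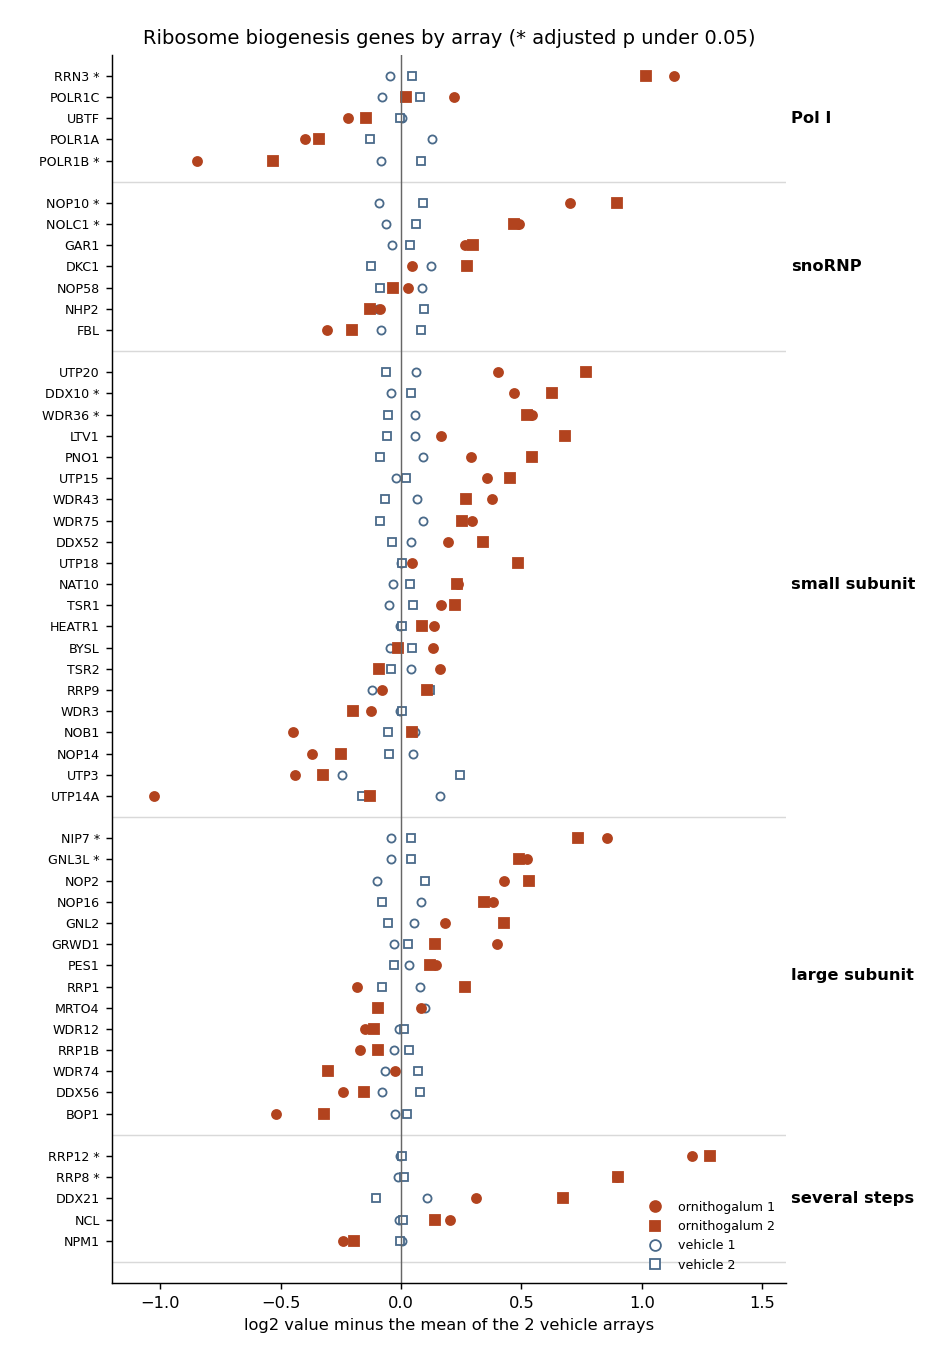
Log2 value of each of the 52 genes on every array, minus the mean of the 2 vehicle arrays (x axis), by step and ordered within a step by the difference. Filled marks are ornithogalum arrays, open marks vehicle arrays, and asterisks mark an adjusted p under 0.05; 28 genes have both ornithogalum arrays to the right of both vehicle arrays and 12 have them to the left.

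Both ornithogalum arrays lay above both vehicle arrays for 28 of the 52 genes and below them for 12, and the groups overlapped for the other 12. Over all tested clusters 32.0% lay apart and higher and 30.2% apart and lower. The ornithogalum arrays differed from each other by a median of 0.11 over these genes, against 0.19 over all clusters, while the vehicle arrays differed by 0.11 in both sets. UTP14A had the widest spread, with 4.37 and 5.27 after ornithogalum against 5.56 and 5.24 after vehicle. There the second ornithogalum array lay between the vehicle arrays, so the groups overlapped.

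Among the Pol I genes 1 rose, 1 fell and 3 did not pass. RRN3, the initiation factor (TIF-IA) that brings Pol I to the ribosomal DNA promoter, measured 7.28 and 7.16 with ornithogalum and 6.10 and 6.19 with vehicle. Every ornithogalum array was higher by at least 0.97. The difference was 1.08 (SE 0.12), or 2.11-fold, with a limma adjusted p = 0.00603. RRN3 has near-identical pseudogenes, and whether the probes of this cluster also match them was not tested.

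POLR1B, the second-largest subunit and part of the polymerase's active centre, measured 4.72 and 5.03 with ornithogalum and 5.48 and 5.65 with vehicle. Both treated arrays were lower, the nearest arrays being 0.45 apart. The difference was -0.69 (SE 0.16), a 1.61-fold fall, with a limma adjusted p = 0.0399. This fall did not pass when arrays were centred on their medians or quantile normalized, nor without ornithogalum replicate 1, where the difference was -0.53. It also did not pass with all clusters of the table tested.

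The other Pol I genes did not pass. POLR1A, the largest subunit, measured 5.53 and 5.59 with ornithogalum and 6.06 and 5.80 with vehicle, which lay apart by 0.21 (difference -0.37, SE 0.14). UBTF, which binds and bends the ribosomal DNA promoter, measured 6.06 and 6.14 against 6.29 and 6.28 (difference -0.18, SE 0.11). POLR1C, a subunit that Pol I shares with RNA polymerase III, measured 6.05 and 5.85 against 5.75 and 5.91, and its groups overlapped. The median difference of the 5 genes was -0.18, the lowest of the steps, and -0.02 with arrays centred on their medians. Centring moved the median of all tested clusters from 0.04 to 0.20.

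**Figure D2:**
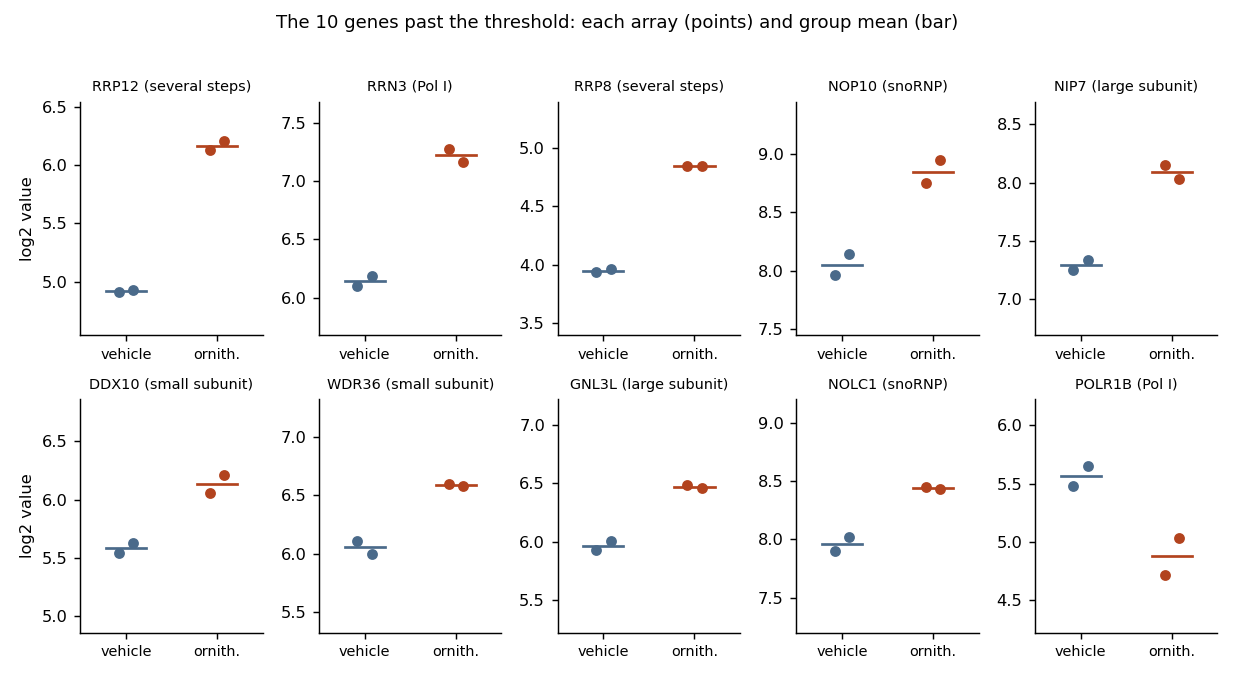
Log2 value (y axis, each panel spanning the same range of 2 log2 units) on each vehicle and ornithogalum array (points) with the mean of the 2 arrays (bar), for the 10 genes past the threshold. In every panel the ornithogalum arrays lie apart from the vehicle arrays, above them for 9 genes and below them for POLR1B.

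Of 7 snoRNP genes 2 rose and 0 fell, with a median difference of 0.16. It was 0.32 with centred arrays, where the median of all tested clusters was 0.20. It was 0.05 without ornithogalum replicate 2, 0.04 without vehicle replicate 2 and 0.27 without ornithogalum replicate 1. NOP10, the smallest core protein of the box H/ACA particles that guide pseudouridylation, measured 8.75 and 8.95 with ornithogalum and 7.96 and 8.14 with vehicle. The treated arrays were both higher, by at least 0.61. Its difference was 0.80 (SE 0.14), or 1.74-fold, with a limma adjusted p = 0.0187. NOP10 did not pass with all clusters of the table tested. NOLC1, a chaperone that shuttles snoRNPs between nucleolus and Cajal bodies, measured 8.45 and 8.43 against 7.90 and 8.02. The difference was 0.48 (SE 0.12), or 1.39-fold, with a limma adjusted p = 0.0470, just inside the threshold. NOLC1 did not pass without ornithogalum replicate 1, after quantile normalization, with array weights or with all clusters of the table tested, where its difference stayed between 0.43 and 0.48.

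The partners of NOP10 in the box H/ACA core did not pass. DKC1, the pseudouridine synthase, measured 6.43 and 6.65 with ornithogalum and 6.50 and 6.25 with vehicle, and the groups overlapped. GAR1 measured 6.04 and 6.07 against 5.73 and 5.81, which lay apart (difference 0.28, SE 0.11). NHP2 has clusters that went opposite ways. Its brighter cluster gave -0.11 (SE 0.13) and the other 0.18 (SE 0.11). The gene lies on chromosome 5, and the 10 named clusters nearest in number to the brighter cluster all belong to chromosome 10, so which of the 2 reports NHP2 is uncertain.

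The box C/D core, whose particles guide ribose methylation, had no call. FBL, the methyltransferase fibrillarin, measured 8.85 and 8.95 with ornithogalum and 9.08 and 9.24 with vehicle, all apart and lower (difference -0.26, SE 0.12). NOP58, a scaffold of the same particles, measured 7.86 and 7.80 against 7.92 and 7.74, with the treated arrays between the vehicle arrays.

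The small subunit group is the largest, and 2 of its 21 genes rose (9.52%) and 0 fell. Its median difference was 0.24, with 16 of 21 differences positive, 13 apart and higher (61.9%) and 3 apart and lower (14.3%). Over all tested clusters 11452 of 21214 differences were positive, with 32.0% apart and higher and 30.2% apart and lower. WDR36, a scaffold protein of the UtpB complex of the processome, measured 6.60 and 6.58 with ornithogalum and 6.11 and 6.00 with vehicle. The difference was 0.53 (SE 0.11), or 1.45-fold, with a limma adjusted p = 0.0346. DDX10, a DEAD-box helicase of the processome, measured 6.05 and 6.21 against 5.54 and 5.63. The difference was 0.55 (SE 0.12), or 1.46-fold, with a limma adjusted p = 0.0387. Both genes had every treated array above every vehicle array. Neither WDR36 nor DDX10 passed with all clusters of the table tested.

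Of the UtpA complex, which binds the precursor first, 4 genes are among the 52, and all 4 lay apart and higher without passing. Over all tested clusters 32.0% lay apart and higher. A further pair of UtpA genes, from the list of other small subunit factors, went opposite ways. NOL11 rose 1.56-fold (difference 0.64, SE 0.16, limma adjusted p = 0.0491), and UTP4 lay apart and lower without passing (-0.44, SE 0.12). Among the 4, UTP15 had a difference of 0.41 (SE 0.11), WDR43 0.32 (SE 0.12), WDR75 0.27 (SE 0.12) and HEATR1 0.11 (SE 0.11). HEATR1 showed the smallest step, with 7.63 and 7.58 against 7.49 and 7.50. The other UtpB genes did not pass, UTP18 with a difference of 0.26 (SE 0.18) and WDR3 with -0.16 (SE 0.11). In UTP18 the ornithogalum arrays disagreed, 6.11 and 6.54, against 6.06 on both vehicle arrays.

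Among other processome genes UTP20, a long scaffold protein, had the largest difference of the small subunit genes without passing. It measured 5.49 and 5.86 with ornithogalum and 5.15 and 5.02 with vehicle (difference 0.59, SE 0.16, limma adjusted p = 0.0697). DDX52, a helicase, gave 0.27 (SE 0.12) and NAT10, the RNA cytidine acetyltransferase, 0.24 (SE 0.11), both apart and higher. RRP9, a protein of the U3 particle, gave 0.01 (SE 0.14) with overlapping groups. On the other side, NOP14 gave -0.31 (SE 0.12) and UTP3 -0.38 (SE 0.19), both apart and lower, and UTP14A -0.58 (SE 0.32).

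Factors of late, cytoplasmic maturation of the small subunit had 0 calls among 6. PNO1, which guards the 3′ end of the 18S precursor, gave 0.42 (SE 0.15) and LTV1, an assembly factor that leaves before the last cut, 0.42 (SE 0.20). TSR1 gave 0.20 (SE 0.11), and these 3 lay apart and higher. BYSL gave 0.06 (SE 0.12) and TSR2, a chaperone of a ribosomal protein, 0.03 (SE 0.14), with overlapping groups. NOB1, the nuclease that makes the last 18S cut, measured 5.81 and 6.30 with ornithogalum and 6.31 and 6.20 with vehicle, and overlapped.

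**Figure D3:**
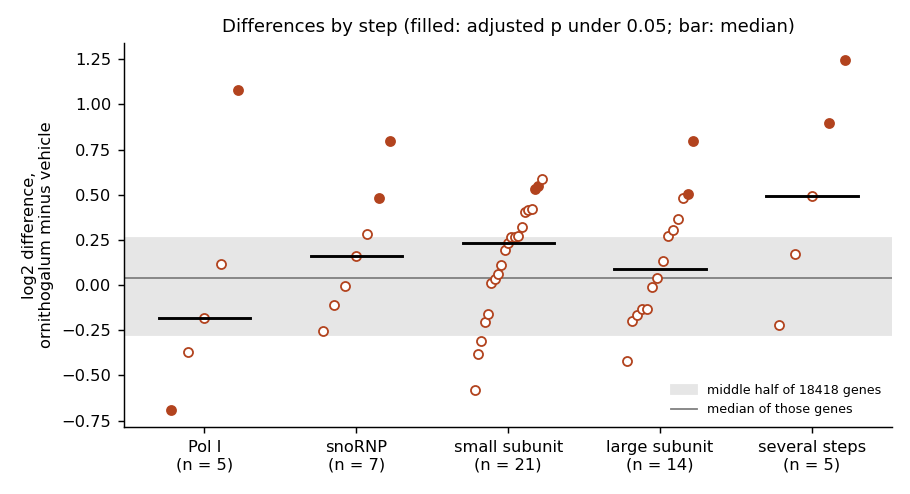
Log2 difference, ornithogalum minus vehicle (y axis), of each gene by step, filled where the adjusted p was under 0.05; black bars are step medians. The grey band spans the lower to the upper quartile of the differences of 18418 genes and the grey line their median of 0.04; the Pol I median lies at -0.18 and the median of the genes of several steps at 0.49.

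Large subunit factors rose in 2 of 14 and fell in 0, with a median difference of 0.09, which was 0.22 to 0.28 under the 3 scalings and 0.03 without vehicle replicate 2. NIP7, which takes part in processing of the precursor RNA and in 60S assembly, measured 8.15 and 8.03 with ornithogalum and 7.25 and 7.34 with vehicle. The nearest arrays of the groups were 0.69 apart. The difference was 0.80 (SE 0.12), or 1.74-fold, with a limma adjusted p = 0.0128. GNL3L, a nucleolar GTPase, measured 6.49 and 6.46 against 5.93 and 6.01. Its difference was 0.51 (SE 0.11), or 1.42-fold, with a limma adjusted p = 0.0375. GNL3L did not pass without ornithogalum replicate 1 (difference 0.49) or with all clusters of the table tested.

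Several large subunit genes lay apart and higher without passing. NOP2, a methyltransferase of 28S RNA, measured 6.38 and 6.49 with ornithogalum and 5.86 and 6.06 with vehicle (difference 0.48, SE 0.13, limma adjusted p = 0.0637). NOP16 gave 0.36 (SE 0.12), the GTPase gene GNL2 0.30 (SE 0.14) and GRWD1, a histone and ribosome chaperone, 0.27 (SE 0.14). Genes that lay apart and lower included DDX56 (-0.20, SE 0.12) and RRP1B (-0.13, SE 0.11). RRP1, MRTO4 and WDR74 overlapped between groups, with differences of 0.04 (SE 0.18), -0.01 (SE 0.14) and -0.17 (SE 0.15).

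The PeBoW complex, a trio needed for maturation of the large subunit RNAs, had no call and no common direction. PES1 measured 5.00 and 4.98 with ornithogalum and 4.89 and 4.83 with vehicle (difference 0.13, SE 0.11). WDR12 measured 6.22 and 6.25 against 6.36 and 6.38 (difference -0.13, SE 0.11). BOP1 measured 5.17 and 5.36 against 5.66 and 5.71 (difference -0.42, SE 0.13), and its other cluster gave -0.04 (SE 0.12) with overlapping groups.

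Genes that act at several steps held the largest change of all 52. RRP12, an export factor for both subunits, measured 6.13 and 6.20 with ornithogalum and 4.92 and 4.93 with vehicle. The groups were 1.20 apart at their nearest arrays. The difference was 1.24 (SE 0.11), or 2.37-fold, with a limma adjusted p = 0.00437. RRP8, a methyltransferase of 28S RNA that also takes part in silencing of ribosomal DNA, measured 4.84 and 4.85 against 3.93 and 3.96. The difference was 0.90 (SE 0.11), or 1.86-fold, with a limma adjusted p = 0.00767. The vehicle values of RRP8 lie below the vehicle array medians of 4.71 and 4.70. Whether they stand above background was not analysed here.

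The abundant nucleolar proteins did not pass. NCL (nucleolin) measured 9.05 and 8.98 with ornithogalum and 8.83 and 8.85 with vehicle, apart and higher (difference 0.17, SE 0.11). NPM1 (nucleophosmin) measured 9.14 and 9.18 against 9.38 and 9.37, apart and lower (difference -0.22, SE 0.11). A pair of further bright NPM1 clusters gave -0.19 each, and a dim one, at 2.82 to 3.08, gave -0.03. For the brightest cluster 2 of the 10 named clusters nearest in number lie on the gene's chromosome 5, so which locus it reports is uncertain. DDX21, a helicase that links Pol I transcription with snoRNA function, measured 7.27 and 7.63 against 7.06 and 6.85 (difference 0.49, SE 0.17).

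Introns of several of these genes carry small nucleolar RNAs, which are cut from the host transcript. RefSeq places 24 such RNA genes within the 55 genes, and 6 have a cluster of their own. SNORD53, which lies within WDR43, measured 7.61 and 7.64 with ornithogalum and 6.97 and 6.87 with vehicle, and rose 1.63-fold (difference 0.70, SE 0.11, limma adjusted p = 0.0159). SNORD20, within NCL, measured 4.46 and 3.79 against 2.88 and 2.74, and rose (difference 1.31, SE 0.24, limma adjusted p = 0.0226). No fold is given for it, since whether these low vehicle values stand above background was not analysed here. The others did not pass. They were SNORD82 (0.43, SE 0.14) and SNORA75 (0.24, SE 0.11) within NCL, and SNORA51 (0.25, SE 0.18) and SNORD57 (0.12, SE 0.12) within NOP56. All 6 differences were positive. Over all tested clusters 6.57% rose and 11452 of 21214 differences were positive. The difference between a small RNA and its host was not tested.

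MYC itself measured 8.24 and 8.22 with ornithogalum and 6.91 and 7.08 with vehicle, a rise of 2.36-fold (difference 1.24, SE 0.12, limma adjusted p = 0.00496). MYC binds the E-box CACGTG, so the promoters of the ribosome biogenesis genes were searched for these letters. RefSeq promoter sequences of GRCh38.p14, from 250 bases before to 50 bases after each gene's start, were matched for 46 of the 52 genes and taken once per gene. The 6 letters, which read the same on both strands, occurred in 17 of the 46 (37.0%) and in 7.43% of 27305 promoters of the same length. Within the 50 bases after the start, counting matches that cross it, they occurred in 28.3% of the 46 and 1.1% of all promoters. The promoters of the 46 genes had a median GC content of 60.5% against 58.3% over all, and promoters were not matched on it.

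The windows below show the E-box in capitals with up to 10 bases on either side, read 5′ to 3′ on the gene's strand. They are some of the windows near the start, in genes with positive and with negative differences.
NOP10 (chr15:34343132-34343157, minus strand): aattgacgaaCACGTGacgcggtcgg
UTP20 (chr12:101280085-101280110, plus strand): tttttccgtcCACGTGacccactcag
NOP2 (chr12:6568242-6568266, minus strand): gtccggattgCACGTGgagggccgc
PNO1 (chr2:68157887-68157912, plus strand): tgcagctgcgCACGTGtttcagccgg
WDR43 (chr2:28894660-28894685, plus strand): cacggacgaaCACGTGgctgcagcgg
GNL2 (chr1:37595919-37595944, minus strand): acgtcgtgcaCACGTGgtccggcgtg
RRP9 (chr3:51941894-51941919, minus strand): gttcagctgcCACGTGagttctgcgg
MRTO4 (chr1:19251809-19251834, plus strand): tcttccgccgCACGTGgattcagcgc
FBL (chr19:39846358-39846383, minus strand): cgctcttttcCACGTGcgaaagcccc
NOP14 (chr4:2963376-2963401, minus strand): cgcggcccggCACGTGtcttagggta
In WDR43 and GNL2 the first base of the E-box is base 4 after the start, in FBL base 7 and in PNO1 base 10. In NOP10 the E-box shown lies 11 bases before the start, and in UTP20 10 bases before it. Matches farther from the start are not shown. They lie 170 bases before it in NOP10, 89 in UTP18 and 241 in UTP14A.

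Genes with and without the E-box had these calls, where 6.57% of all tested clusters rose and 12.6% fell. Whether calls differed with a motif was not tested. Of the 17 with it 1 rose (NOP10) and 0 fell, and their median difference was 0.24, over a range of -0.58 to 0.80. Of the 29 without it 6 rose, RRN3, NIP7 and RRP8 among them, and their median was 0.16, over -0.69 to 1.08. RRP12 and NOLC1, which also rose, are not among the 46 genes. A second motif, CCGGAAG on either strand, which contains the core bound by ETS factors, occurred in 20 of the 46 promoters (43.5%) and in 10.7% of all promoters. Of those 20 genes 5 rose and 1 fell, and of the other 26, 2 rose. Whether matches of different motifs share bases was not examined, and a match describes letters and not a bound site.

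Other genes of the pathway were read from lists chosen by function. Beside the counts of each list, 6.57% of all tested clusters rose and 12.6% fell. Of 10 further Pol I genes 4 rose and 2 fell, with a median difference of 0.11. Under each of the 3 scalings 4 rose and 1 fell, with medians of 0.24 to 0.30, and the median was 0.02 without vehicle replicate 2. POLR1H, a small Pol I subunit, measured 7.52 and 7.46 with ornithogalum and 6.27 and 6.04 with vehicle, and rose 2.52-fold (difference 1.33, SE 0.13, limma adjusted p = 0.00500). Within SL1, the promoter factor of Pol I, TAF1A rose 2.21-fold (1.14, SE 0.14), TAF1D rose 1.73-fold (0.79, SE 0.15) and TAF1B fell 2.04-fold (-1.03, SE 0.17). TTF1, the termination factor, fell 2.04-fold (-1.03, SE 0.24). It measured 4.02 and 3.47 with ornithogalum, and whether these low values stand above background was not analysed here.

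**Figure D4:**
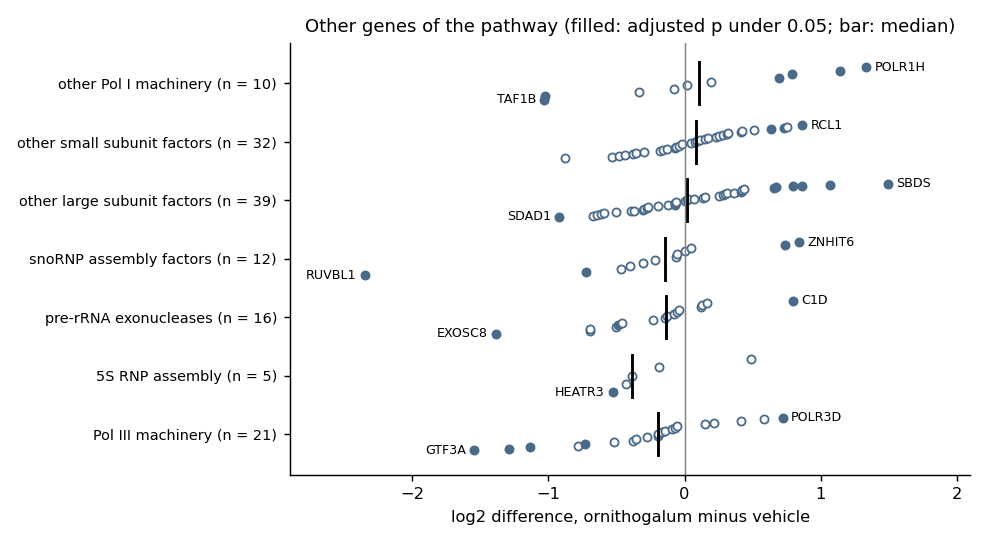
Log2 difference, ornithogalum minus vehicle (x axis), of every measured gene in 7 further lists of the pathway (y axis), filled where the adjusted p was under 0.05; black bars are list medians. The extreme gene on each side is named where it passed, from RUVBL1 at -2.35 to SBDS at 1.49.

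Of 32 further small subunit factors 3 rose (9.38%) and 0 fell, with a median difference of 0.08. RCL1 rose 1.82-fold (difference 0.87, SE 0.11), and RIOK1, an atypical kinase of late pre-40S particles, 1.66-fold (0.73, SE 0.15). With 1 array left out the median of the 32 lay between -0.01 and 0.13. Of 39 further large subunit factors 6 rose and 1 fell, with a median of 0.02. SBDS, which helps to release eIF6 from new large subunits, measured 9.49 and 9.79 with ornithogalum and 8.08 and 8.22 with vehicle, and rose 2.82-fold (1.49, SE 0.15). NOC3L rose 2.09-fold (1.07, SE 0.12) and SDAD1 fell 1.89-fold (-0.92, SE 0.11). The median of the 39 lay between 0.0064 and 0.040 with 1 array left out.

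Assembly factors of snoRNPs went both ways, 2 of 12 higher and 2 lower, with a median of -0.14. It was 0.02 with centred arrays and 0.0042 after quantile normalization. The medians of all tested clusters were then 0.20 and 0.05. RUVBL1, an ATPase of the chaperone complex that builds box C/D particles, measured 4.22 and 4.86 with ornithogalum and 6.81 and 6.97 with vehicle. Its 5.09-fold fall (difference -2.35, SE 0.23, limma adjusted p = 0.00501) was larger than any difference among the 52 genes. Its partner RUVBL2 measured 6.56 and 6.47 against 6.58 on both vehicle arrays and did not pass. RPAP3, of the same chaperone system, fell 1.65-fold (-0.72, SE 0.12), while ZNHIT6 rose 1.79-fold (0.84, SE 0.12) and NAF1, an assembly factor of box H/ACA particles, 1.67-fold (0.74, SE 0.13).

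Of 16 measured exosome subunits, cofactors and other nucleases of the precursor RNA 1 rose (6.25%) and 2 fell (12.5%). These shares are near those of all tested clusters (6.57% and 12.6%). The median of the 16 was -0.14, or 0.02 with centred arrays, where the median of all tested clusters was 0.20. EXOSC8 fell 2.62-fold (-1.39, SE 0.13) and EXOSC1 1.41-fold (-0.49, SE 0.12). The cluster annotated to C1D, an exosome cofactor, rose 1.74-fold (0.80, SE 0.18). Chromosomes of neighbouring clusters were compared for the 52 genes only, so whether this cluster reports the C1D gene is uncertain. With 1 array left out the median of the 16 lay between -0.18 and -0.12. In the assembly of the 5S particle HEATR3 fell 1.44-fold (-0.52, SE 0.13), and 0 of 5 rose. Without ornithogalum replicate 1, or with arrays centred or quantile normalized, 0 of the 5 fell, and under those scalings 1 rose. Among 21 genes of RNA polymerase III, which makes 5S RNA and transfer RNA, 1 rose (4.76%) and 4 fell (19.0%), with a median of -0.19. Under each of the 3 scalings 3 rose and 4 fell, with medians of -0.03 (centring), -0.09 (quantile) and -0.13 (loess). GTF3A, the 5S gene factor, fell 2.92-fold (-1.55, SE 0.17), POLR3B 2.45-fold (-1.29, SE 0.15), and POLR3D rose 1.65-fold (0.72, SE 0.11). With ornithogalum POLR3B measured 3.56 and 3.46 and HEATR3 3.65 and 3.58. Whether these low values stand above background was not analysed here. The median of the 21 polymerase III genes was -0.29 without ornithogalum replicate 2 and -0.07 without ornithogalum replicate 1. Of 9 genes for MYC, MAX and silencers of ribosomal DNA, MYC alone passed, and 0 fell.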

How the data were processed

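Per the submitters' processing notes, the deposited log2 values were made by the authors with RMA in Affymetrix Expression Console 1.1, with 1 value per transcript cluster and array; background and filter settings and a genome build are not stated in the labels or file headers used. The 4 arrays do not share 1 distribution of values, hence the scaling alternatives. Of 33297 clusters, 19461 have 1 symbol in the platform annotation of 2016, 1753 several and 12083 none; symbols were updated by gene number (19429 matched). A gene was read from its 1-symbol cluster of highest mean. The 21214 clusters with a symbol were tested with limma 3.58.1 in R 4.3.3 (lmFit, eBayes, two-sided, Benjamini-Hochberg, 0.05), with no filter on dim clusters. An exact permutation test of 2 arrays against 2 cannot give p below 0.333, so none is reported.

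In 20 simulated sets with 200 of 21214 clusters changed, limma recovered 0% of 1.5-fold, 13.0% of 2-fold, 61.4% of 4-fold and 82.3% of 8-fold changes, with 0.95 wrong calls per set. In the data 1393 clusters rose and 2683 fell, and the groups differed in spread, while the simulation gave both groups the same spread. These rates therefore do not give the share of changes recovered in these data.

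The genes, the steps and the 12 further lists (190 entries, 181 measured) were chosen with earlier results of these data known. All genes of the main list could be named, and from each other pathway list at most 2 called genes each way by size; marker genes, RUVBL2, TAF1D, NOL11, UTP4 and motifs were picked afterwards. A searched palindromic motif is left out of the text. Alternatives were a replicate block, leaving out each array, 3 scalings, other sets of clusters, other variance models and other thresholds.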

Additional observations from a re-analysis of the deposited data

Results flagged for a closer look

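The annotation of 6 clusters names 1 of the ribosome biogenesis genes together with other symbols, and the results above leave these clusters out. They are listed here since they hold values that the main measurement does not use: 5 of the 6 rose in limma and 0 fell. Over all tested clusters 6.57% rose and 12.6% fell. Of the 5, 3 are annotated to RRN3 with its pseudogenes, with differences of 0.75, 0.77 and 0.75, next to 1.08 for the cluster annotated to RRN3 alone. A further pair is annotated to DKC1 with small RNAs, SNORA36A and MIR664B for the first and SNORA56 for the second. Their differences were 1.12 and 0.65, next to 0.16 for the cluster of DKC1 alone, which did not pass. The first measured 3.18 and 3.89 with ornithogalum and 2.55 and 2.28 with vehicle. Whether these low values stand above background was not analysed here. The sixth, annotated to NOP56 with SNORD56, gave 0.36 and did not pass. Which of the named genes gave the signal was not tested.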

How the results depend on the processing

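The median of all differences was 0.04 as deposited, 0.20 with arrays centred on their medians, 0.05 after quantile normalization and 0.02 after cyclic loess. Counts of ribosome biogenesis genes that rose were 14 with centring, with only brighter clusters, with an intensity trend and with a robust trend, 4 with all clusters of the table tested and 3 at an adjusted p under 0.01, and ranged from 0 to 11 when 1 array was left out. Those that fell were 0 with centring, quantile normalization, all clusters and the 0.01 threshold, 2 with brighter clusters, both trends and the 0.10 threshold, and 0 to 3 with 1 array left out. Over all clusters 2238 rose with centring (1898 fell), 442 at 0.01, 2248 at 0.10 and 0 to 3054 with 1 array left out; 1677 fell with all clusters, 1001 at 0.01 and 0 to 4004 with 1 array left out. After quantile normalization 1817 rose and 2308 fell, and after cyclic loess 1738 and 2629. With only brighter clusters, those with a mean above the median, 1811 rose and 3021 fell. That fit tested fewer clusters, and 50 of the 52 genes are among them. With an intensity trend 1822 rose and 3344 fell, and with a robust trend 1823 and 3295. With all 33297 clusters of the table tested 967 rose.

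The labels do not say whether arrays of the same replicate number share a culture or day. The correlation of their deviations over clusters was -0.059, which cannot decide this with 2 arrays per group. With the replicate block 5 of the 52 genes rose and 1 fell, and NOLC1, DDX10, WDR36 and GNL3L did not pass. Over all tested clusters 1035 rose and 2267 fell in that fit.

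Step medians moved for Pol I to -0.024 (centring), -0.056 (quantile) and -0.087 (loess), for snoRNPs to 0.32 (centring) and between 0.035 and 0.27 with 1 array left out, for the small subunit to 0.39 (centring) and between 0.17 and 0.23 with 1 array left out, and for the large subunit to 0.25 (centring), 0.28 (quantile) and 0.22 (loess), and between 0.032 and 0.14. With 1 array left out the several-steps median lay between 0.31 and 0.67. Differences changed sign only in genes that had not passed. With centring NOP58 gave 0.16, NHP2 0.052, WDR12 0.028, RRP1B 0.027 and MRTO4 0.15. With quantile normalization NHP2 gave 0.0075, WDR3 0.041 and MRTO4 0.19, and with loess MRTO4 gave 0.13. The other NHP2 cluster gave 0.18. Leaving out 1 array gave ranges of -0.090 to 0.084 for NOP58, -0.11 to 0.13 for RRP9, -0.45 to 0.044 for NOB1, -0.093 to 0.16 for TSR2, -0.013 to 0.13 for BYSL, -0.18 to 0.27 for RRP1 and -0.11 to 0.089 for MRTO4. The 10 genes that passed kept their direction under every alternative that tested them. RRP12, RRN3 and RRP8 lost their call only without a vehicle array, and RRP8 was not among the brighter clusters tested alone. The cause of these shifts was not tested. Array signal over background was not analysed here.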
